A study of Mus musculus with 32 samples.

Results

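The 29 genes described here encode lysosomal hydrolases, their helper proteins and lysosomal membrane proteins. They were chosen by symbol as well-known components of the lysosome, with earlier results of these data known. All 29 were found among the 54532 genes in the table and among the 17853 with enough counts to be tested. Their transcripts were measured by sequencing polyadenylated RNA from whole livers of wild-type mice that had eaten 1 of 2 diets for 2 weeks. The diet called cdHFD was rich in fat, free of choline and low in methionine, and the other was normal chow. Livers were collected at zeitgeber times (ZT, counted from lights on) 2, 8, 14 and 20 h on each diet, which gave 8 groups of 4 libraries, 32 in all. Each group held 2 females and 2 males, except cdHFD at ZT14 with 1 female and 3 males. The sources used here do not name the strain, the age or the light schedule. The question in the series title is whether daily rhythms of liver transcripts are disturbed in steatohepatitis, which diets of this kind are used to model.

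Lysosomes are acidic organelles that break down proteins, sugars and lipids delivered by endocytosis, phagocytosis and autophagy. Most hydrolases are tagged with mannose 6-phosphate in the Golgi and carried to the lysosome by receptors, while membrane proteins protect the wall, move cholesterol and ions out and signal to the cell. Many of these genes carry the E-box CACGTG in their promoters, which is bound by TFEB and its relatives of the MiT/TFE family. In the liver both hepatocytes and resident macrophages (Kupffer cells) are rich in lysosomes.

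Values are CPM, the counts of a gene relative to the total of its library, with totals scaled by the trimmed mean of M values (TMM), and fold changes are cdHFD over chow from edgeR's quasi-likelihood test with sex in the model. A gene was called at a Benjamini-Hochberg adjusted p under 0.05 over all 17853 genes. Libraries held 29.5 to 54.6 M counts. SEs come from a linear model of log2 CPM, another estimator than that of the fold changes. No label says that the replicates are separate animals, so every p-value rests on the spread among libraries, which may be technical in part. Each group held both sexes, so its libraries did not all come from the same animal. Where a liver is counted or plotted below, it stands for a library. Markers of the expected tissue were present: 11 of 11 tested hepatocyte markers were called lower in cdHFD, with a summed level of 47851 to 83536 CPM in cdHFD livers, against 137577 to 206389 CPM in chow livers. All 15 macrophage markers were called higher, with sums of 1333 to 2222 CPM in cdHFD and 175 to 766 CPM in chow. All 5 tested of 10 neutrophil markers were called higher, and the 10 summed to 11.5 to 76.4 CPM in cdHFD and 2.59 to 12.2 CPM in chow. Of the other lists, 6 of 8 stellate, 5 of 7 dendritic, 4 of 8 T and NK cell, 4 of 5 cholangiocyte, 3 of 6 endothelial and 0 of 4 B cell markers were called higher, while 2 endothelial markers (Clec4g and Kdr) and 1 dendritic marker (Zbtb46) were called lower. No listed marker was at 0 in all libraries, and their part in the results on lysosomal genes was not tested. In whole liver, fewer cells of a type and less RNA per cell cannot be told apart. In 4 libraries the deviations from the group followed the GC content of the genes (absolute Spearman rho above 0.4), namely cdHFD ZT2 replicates 3 and 4, cdHFD ZT14 replicate 2 and chow ZT8 replicate 3. Chow ZT2 replicates 2 and 1 lay just inside that limit (rho 0.397 and -0.397). Leaving out the 4 libraries therefore does not remove all such deviations.

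Most lysosomal genes were higher in cdHFD livers. Averaged over the 4 times, 19 of the 29 were called higher, 4 lower, and 6 did not pass the test. Among all genes tested 62.1% were called, 31.0% higher and 31.2% lower. Because the 29 were chosen with earlier results known, their difference from these shares is a description and not a test. The median log2 fold change was 0.36 over the 29 genes and -0.02 over all genes tested. At least 2-fold higher were 5 of the 29 (Ctsd, Ctsk, Ctss, Lgmn and Psap), against 13.5% of all genes. The 16 cdHFD libraries all lay above the 16 chow libraries for Ctsd, Ctsk, Ctss, Lgmn and Hexa, and all below for Gm2a. That separation was found in 5.86% of all genes upward and in 2.68% downward. Together the 29 genes took 0.934% ± 0.118 of all counts in cdHFD libraries and 0.437% ± 0.0665 in chow libraries (SD, n = 16 each).

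The share of counts and the TMM-scaled values differ in size because the 2 scalings differ. Scaling by total counts alone moved the median of all genes to 0.54 on the log2 scale, cdHFD over chow. Under it 26 of the 29 were called higher and only Gm2a lower, with Ctsh, Glb1, Manba, Mcoln1 and Tfeb turning from a negative to a positive change. The share of all genes called under this scaling is not given. The 26 therefore cannot be read against the 31.0% called higher under TMM. Gaa and Lamp2 then had log2 values of -0.01 and -0.02 and were no longer called. The directions below are relative to the bulk of genes, as TMM sets them.

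**Figure D1:**
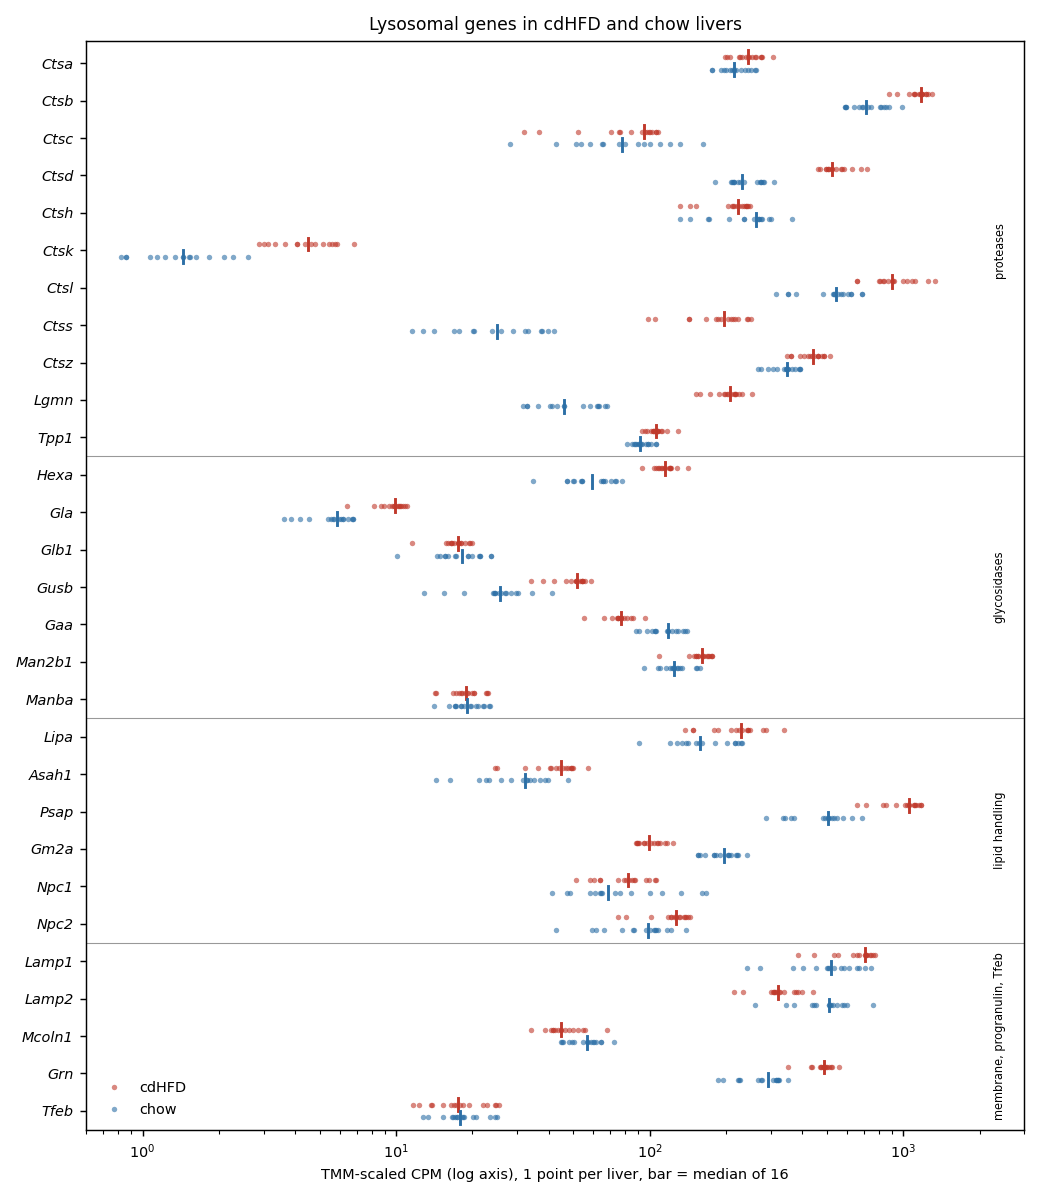
Level of the 29 lysosomal genes in every liver, grouped by role. The horizontal log axis gives TMM-scaled CPM, each point is 1 library (cdHFD red, upper row of a gene, chow blue, lower row) and the vertical bar is the median of 16. Ctss and Lgmn show wide gaps between the diets, while Ctsc, Ctsh, Glb1, Manba, Npc1 and Tfeb overlap broadly.

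Among the 11 proteases 9 were called higher in cdHFD and none lower. Ctss encodes cathepsin S, a cysteine protease of antigen-presenting cells that trims the invariant chain of MHC class II. It spanned 98.9 to 252 CPM with a median of 197 in cdHFD livers, against 11.6 to 41.8 CPM with a median of 24.9 in chow livers. Even the lowest cdHFD liver was above the highest chow liver. The change was 7.69-fold, or 2.94 ± 0.17 on the log2 scale (SE; adjusted p = 1.59e-15, edgeR quasi-likelihood test). Its group means were 172, 209, 150 and 224 CPM at ZT2, ZT8, ZT14 and ZT20 in cdHFD, against 20.8, 28.8, 22.4 and 31.4 CPM in chow. Ctss lies on chromosome 3 (chr3:95526786-95556403, plus strand, GRCm38) and has 8 merged exons in GENCODE M21.

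Lgmn encodes legumain, an asparaginyl endopeptidase that cuts cathepsin precursors to their mature chains. It ranged from 153 to 253 CPM (median 206.5) in cdHFD and from 31.6 to 68.0 CPM (median 45.8) in chow, with no overlap. The 4.27-fold change had a log2 value of 2.09 ± 0.10 (SE; adjusted p = 6.81e-17 in edgeR), the smallest adjusted p among the 29. Group means stayed between 188 and 217 CPM in cdHFD and between 43.7 and 56.0 CPM in chow. The gene lies at chr12:102394084-102439813 on the minus strand.

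Ctsk, the collagen-degrading protease best known from osteoclasts, lies upstream of Ctss on the same strand (chr3:95499256-95509362). Its level was low, at 2.88 to 6.84 CPM (median 4.50) in cdHFD and 0.826 to 2.62 CPM (median 1.44) in chow, and the groups did not overlap. The change was 3.04-fold, with a log2 value of 1.604 ± 0.11 (SE; adjusted p = 5.98e-13 in edgeR). Group means of Ctsk were 3.27, 5.35, 4.89 and 4.62 CPM in cdHFD and 1.10, 1.17, 2.16 and 1.51 CPM in chow at the 4 times. Ctsd, the main aspartic protease of lysosomes, ranged from 462 to 717 CPM (median 523) in cdHFD and from 180 to 309 CPM (median 231) in chow. All cdHFD livers were again above all chow livers, and the log2 change was 1.18 ± 0.06 (adjusted p = 1.07e-14 in edgeR). Of its merged exon bases 34.4% are shared with Gm49369 on the same strand, which was listed at 0 CPM on both diets, so the split of reads between the annotations is uncertain.

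The broad-spectrum cysteine proteases Ctsb and Ctsl changed less and their groups overlapped. Ctsb had 876 to 1301 CPM (median 1170.2) in cdHFD and 587 to 986 CPM (median 709.7) in chow, a log2 change of 0.66 ± 0.06 (adjusted p = 5.22e-10 in edgeR). Its group means were 1201, 1143, 1025 and 1187 CPM in cdHFD and 694, 837, 704 and 689 CPM in chow at the 4 times in order. Fdft1, the squalene synthase gene, overlaps it on the opposite strand over 12.8% of its merged exons and averaged 47.7 CPM in cdHFD and 229 CPM in chow (scaled by total counts). Because the libraries do not mark strand, reads from the shared stretch cannot be assigned to either gene. Ctsl had 653 to 1329 CPM in cdHFD and 315 to 686 CPM in chow, with a log2 change of 0.83 ± 0.09 (adjusted p = 5.11e-09 in edgeR). The antisense gene Gm47123 covers 26.8% of the merged exons of Ctsl and was listed at 0 CPM on both diets.

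Smaller increases were found for Ctsz (log2 0.36), Tpp1 (0.19) and Ctsa (0.17), which encode a carboxypeptidase, the tripeptidyl peptidase lost in a childhood neuronal storage disease, and the protective protein of the beta-galactosidase complex. The calls of Ctsa and Tpp1 were lost without the filter on low counts (adjusted p = 0.0834 and 0.0501 in edgeR), and both were lost in males alone (0.717 and 0.224). The call of Ctsa was also lost without the 4 libraries with GC-related deviations (0.129), without cdHFD ZT2 replicate 4 (0.0556) and without chow ZT8 replicate 1 (0.0516). Ctsc and Ctsh, both with exopeptidase activity, did not pass the test. Ctsc, which activates granule serine proteases, had 31.96 to 108 CPM (median 94.7) in cdHFD and 28.0 to 162 CPM (median 77.7) in chow, and the chow range enclosed that of cdHFD. Its group means were 85.7, 88.6, 59.0 and 100.2 CPM in cdHFD and 71.6, 95.6, 72.8 and 91.8 CPM in chow. Its log2 change was 0.12 ± 0.19 (adjusted p = 0.563 in edgeR). Fitted alone in edgeR, females gave a log2 value of -0.38 (adjusted p = 0.167) and males one of 0.60 (adjusted p = 0.0103), and the test of whether the sexes differed in their diet effect did not pass (adjusted p = 0.0568). Ctsh had a log2 value of -0.16 ± 0.10 (adjusted p = 0.177 in edgeR).

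Of the 7 glycosidases 4 were called higher and 1 lower. Hexa encodes the alpha subunit of beta-hexosaminidase, which clears GM2 ganglioside. It had 93.2 to 142 CPM (median 115) in cdHFD and 34.6 to 77.8 CPM (median 59.3) in chow, without overlap, and a log2 change of 0.98 ± 0.07 (adjusted p = 1.12e-12 in edgeR). Gusb, beta-glucuronidase, had 34.1 to 58.4 CPM (median 51.6) in cdHFD and 12.9 to 41.0 CPM (median 25.7) in chow. The ranges overlapped through 2 cdHFD livers (ZT14 replicate 2 and ZT2 replicate 4, at 34.1 and 37.9 CPM) and 2 chow livers (ZT14 replicate 1 and ZT20 replicate 2, at 41.0 and 34.4 CPM), and the log2 change was 0.97 ± 0.09 (adjusted p = 5.63e-11 in edgeR). Gla, the alpha-galactosidase A of globoside breakdown, and Man2b1, an alpha-mannosidase, had log2 changes of 0.79 and 0.33.

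Gaa, the acid alpha-glucosidase that degrades lysosomal glycogen, moved the other way. It had 55.1 to 95.7 CPM (median 77.0) in cdHFD and 88.5 to 140 CPM (median 118) in chow, and the ranges overlapped through 1 cdHFD liver (ZT2 replicate 4) and 2 chow livers (ZT14 replicate 4 and ZT2 replicate 3). Its group means were 82.6, 78.4, 69.6 and 75.7 CPM in cdHFD, against 111, 133, 104 and 112 CPM in chow, over the 4 times in order. The log2 change was -0.58 ± 0.06 (adjusted p = 6.32e-09 in edgeR), and -0.01 under total-count scaling. Glb1, beta-galactosidase, and Manba, beta-mannosidase, were not called (log2 -0.05 and -0.04). Manba had 14.2 to 23.0 CPM (median 18.9) in cdHFD and 14.1 to 23.4 CPM (median 19.0) in chow, which are nearly the same range, and its group means lay between 16.5 and 20.5 CPM in cdHFD and between 18.3 and 20.3 CPM in chow.

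Of the 6 genes for lipid handling 4 were called higher and 1 lower. Psap encodes prosaposin, the precursor of the saposins that lift sphingolipids out of membranes for their hydrolases. It had 658 to 1177 CPM (median 1055) in cdHFD and 288 to 684 CPM (median 502) in chow, and a log2 change of 1.09 ± 0.09 (adjusted p = 2.27e-11 in edgeR). The 2 ranges overlapped only through cdHFD ZT14 replicate 2 and chow ZT8 replicate 4. Group means were 1044, 1080, 831 and 1068 CPM in cdHFD and 391.8, 592, 464 and 472 CPM in chow at the 4 times. Asah1 (acid ceramidase), Npc2 (the soluble carrier of lysosomal cholesterol) and Lipa (lysosomal acid lipase) had log2 changes of 0.54, 0.45 and 0.40. Npc2 averaged 123, 133, 105 and 129 CPM in cdHFD and 69.99, 111, 95.1 and 92.9 CPM in chow at the 4 times. In females alone the calls of these 3 were lost in edgeR, with adjusted p-values of 0.0951, 0.275 and 0.131.

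Gm2a encodes the GM2 activator, which presents GM2 ganglioside to the Hexa product. It went in the direction opposite to Hexa, at 88.0 to 123 CPM (median 99.2) in cdHFD, against 154 to 241 CPM (median 196) in chow. No cdHFD liver reached the lowest chow liver. The fitted ratio was 0.526 and the log2 change -0.93 ± 0.06 (adjusted p = 1.33e-13 in edgeR). It held its sign under total counts, with a log2 value of -0.35 (adjusted p = 5.29e-06 in edgeR). Group means were 107, 94.6, 103 and 99.97 CPM in cdHFD and 180, 222, 199 and 170 CPM in chow at ZT2, ZT8, ZT14 and ZT20. Npc1, the membrane protein that exports cholesterol from the lysosome, had an averaged log2 change of 0.01 ± 0.09 (adjusted p = 0.943 in edgeR), which hid opposite changes at 2 times described below.

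The 5 remaining genes split, with Lamp1 and Grn higher, Lamp2 and Mcoln1 lower, and Tfeb not called. Grn encodes progranulin, a secreted and lysosomal protein whose loss causes lipofuscin storage. It had 350.4 to 559 CPM (median 488) in cdHFD and 185 to 351 CPM (median 292) in chow, a log2 change of 0.82 ± 0.07 (adjusted p = 3.58e-11 in edgeR). Only the lowest cdHFD liver, ZT14 replicate 1, came down to the highest chow liver, ZT2 replicate 4. Group means of Grn were 515, 484, 455 and 467 CPM in cdHFD and 238, 269, 297 and 306 CPM in chow.

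LAMP1 and LAMP2 are the most abundant glycoproteins of the lysosomal membrane, and their transcripts changed in opposite directions. Lamp1 had 384 to 772 CPM (median 707) in cdHFD and 243 to 748 CPM (median 520.2) in chow, a log2 change of 0.35 ± 0.12 (adjusted p = 0.00752 in edgeR), which was not called in males alone (adjusted p = 0.0684 in edgeR). Lamp2, which also takes part in the fusion of autophagosomes, had 215 to 441 CPM (median 319.7) in cdHFD and 259 to 759 CPM (median 511) in chow. Both pairs of ranges overlapped, and the log2 change of Lamp2 was -0.59 ± 0.11 (adjusted p = 1.13e-05 in edgeR). Its group means were 364, 319, 291 and 340 CPM in cdHFD and 415, 598, 478 and 496 CPM in chow. Mcoln1, the calcium channel known as mucolipin, had 34.1 to 67.9 CPM (median 44.6) in cdHFD and 44.7 to 72.0 CPM (median 56.7) in chow, a log2 change of -0.25 ± 0.08 (adjusted p = 0.00513 in edgeR). Its group means were 47.2, 50.6, 46.0 and 42.6 CPM in cdHFD and 49.8, 63.0, 58.0 and 52.1 CPM in chow. The change became 0.32 under total-count scaling (adjusted p = 0.000322 in edgeR), a reversal, and was not called in females alone (adjusted p = 0.255 in edgeR).

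Tfeb itself showed no diet difference that passed the test. It had 11.7 to 25.5 CPM (median 17.5) in cdHFD and 12.8 to 24.9 CPM (median 17.8) in chow, 2 ranges that coincide almost fully. Group means were 14.9, 22.5, 19.7 and 15.99 CPM in cdHFD and 19.1, 17.2, 19.6 and 17.97 CPM in chow at the 4 times. The log2 change was -0.03 ± 0.10 (adjusted p = 0.804 in edgeR). TFEB is controlled largely by its move to the nucleus, which transcript counts do not show.

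Levels of different genes were compared per kilobase of merged exons, as CPM per kb. The lengths include bases shared with other annotated genes, 34.4% for Ctsd with Gm49369 and 26.8% for Ctsl with Gm47123. Reads from shared bases may be missing, so the values of such genes may be too low and their ranks are uncertain. In cdHFD livers the order was led by Psap (366 ± 59.0), Ctsz (301 ± 34.4), Lamp1 (244 ± 43.3) and Ctsd (233 ± 31.0; SD, n = 16 libraries). In chow livers it was led by Ctsz (236 ± 27.1), Lamp1 (194 ± 54.8), Psap (175 ± 40.9) and Ctsb (121 ± 19.9). Lamp1 and Ctsd in cdHFD, and Lamp1 and Psap in chow, were closer to each other than their SD. The lowest were Ctsk, Gla and Manba, at 2.998, 2.96 and 2.71 CPM per kb in cdHFD and 0.981, 1.71 and 2.76 in chow. Ctss stood at rank 7 in cdHFD and rank 16 in chow, and Lgmn at rank 9 and rank 15 of the 29. Gm2a was at rank 15 in cdHFD and rank 10 in chow.

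The diet difference was then followed over the day. At ZT2 19 genes were called higher and 2 lower, where 21.0% of all genes were higher and 20.7% lower (41.7% in all). At ZT8 12 were higher and 4 lower, against 20.6% and 19.4% of all genes (40.0%). At ZT14 11 were higher and 3 lower, against 19.8% and 15.8% (35.6%), and at ZT20 14 were higher and 3 lower, against 19.8% and 19.3% (39.1%). The same 11 genes were called higher at all 4 times, namely Ctsb, Ctsd, Ctsk, Ctsl, Ctss, Lgmn, Hexa, Gla, Gusb, Psap and Grn, and Gaa and Gm2a were called lower at all 4. For 24 of the 29 the most positive log2 difference was that at ZT2, a description with no test. In cdHFD the group mean was lowest at ZT14 for 23 genes, and in chow it was lowest at ZT2 for 21. The shares of all genes with these patterns were not counted. The libraries with the lowest summed level of the 29 genes on each diet were cdHFD ZT14 replicate 1 (5744 CPM) and chow ZT2 replicate 2 (3888 CPM), and mitochondrial transcripts took 8.31% and 8.78% of their counts. Next lowest in chow were ZT2 replicate 3 (4119 CPM) and ZT14 replicate 2 (4258 CPM). Their mitochondrial shares, 12.7% and 13.1%, were the highest of all libraries. Chow ZT2 replicates 1 and 4 had 4421 and 6032 CPM, with shares of 8.09% and 5.93%. At cdHFD ZT14 replicate 2 was also low, at 5961 CPM with a mitochondrial share of 5.61%. Replicates 3 and 4 of that group had 7893 and 7345 CPM. Its replicates 1 and 2 had the lowest macrophage marker sums in cdHFD, 1333 and 1437 CPM, whose part was not tested. The mitochondrial share was 3.73 to 8.31% over cdHFD libraries and 5.08 to 13.1% over chow libraries, and its part in these values was not tested.

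**Figure D2:**
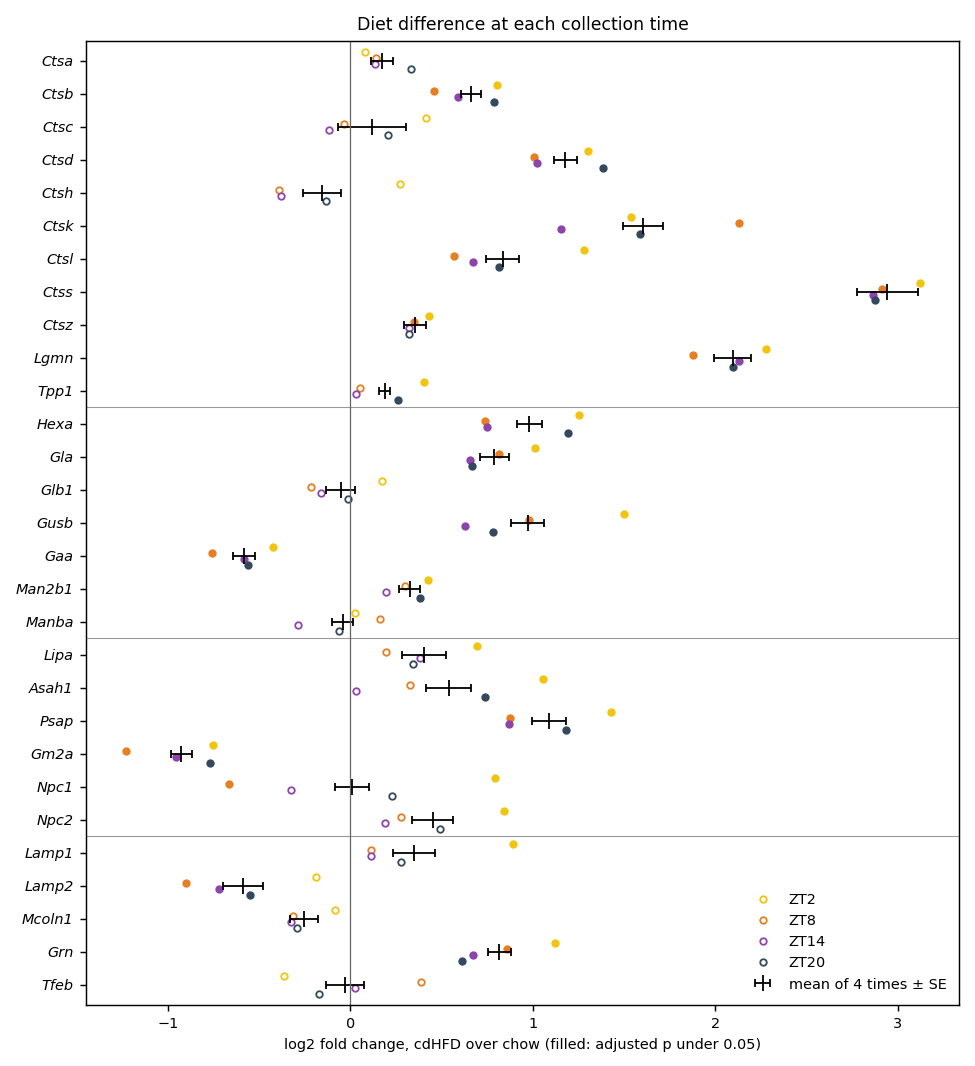
Diet difference of each lysosomal gene at each collection time. The horizontal axis is the log2 fold change of cdHFD over chow, circles are the 4 times (filled where the adjusted p is under 0.05) and the black mark is their average with its SE. Yellow circles for ZT2 lie furthest right for most genes, and Npc1 has filled circles on both sides of the zero line.

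The test of whether the diet effect differed between the 4 times was passed by 1 of the 29 genes, Npc1 (adjusted p = 0.00282 in edgeR), against 5.77% of all genes. At ZT2 Npc1 had 79.2, 87.0, 105 and 105.4 CPM in cdHFD and 63.6, 47.3, 41.0 and 64.0 CPM in chow, a log2 difference of 0.79 ± 0.18 (adjusted p = 0.000699 in edgeR). At ZT8 it had 99.3, 83.1, 96.6 and 80.3 CPM in cdHFD and 133, 112, 167 and 161 CPM in chow, a log2 difference of -0.66 ± 0.18 (adjusted p = 0.00341 in edgeR). At both times the 4 cdHFD livers and the 4 chow livers did not overlap, and the order of the diets was opposite.

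At ZT14 Npc1 had 51.0, 57.9, 60.5 and 63.9 CPM in cdHFD and 84.4, 48.7, 99.9 and 64.8 CPM in chow. At ZT20 the values were 85.4, 87.7, 75.2 and 63.8 CPM in cdHFD and 61.1, 72.6, 76.3 and 57.9 CPM in chow. The groups overlapped at ZT14 and ZT20, and neither difference passed the test (log2 -0.32 and 0.23). Leaving out chow ZT2 replicate 4 raised the number of genes among the 29 whose diet effect differed between times to 8, and leaving out cdHFD ZT2 replicate 4 raised it to 3. Under total counts the ZT8 difference of Npc1 was -0.04 and no longer called, while its test across times was passed. In females alone and in males alone 0 of the 29 genes, Npc1 included, passed that test in edgeR. Each of these fits used fewer libraries, and the shares of all genes under them are not given.

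Rhythm was tested as a 24 h cosine within each diet. In cdHFD 0 of the 29 genes passed edgeR's test (2.47% of all genes did), and 3 (Ctsl, Npc1 and Tfeb) had an unadjusted p under 0.05. In chow 4 passed, against 17.7% of all genes. These were, in edgeR, Npc1 (adjusted p = 0.00133), Ctsk (0.0139), Hexa (0.0144) and Gusb (0.0396). The fitted amplitude in chow was 0.59 ± 0.13 for Npc1, 0.51 ± 0.12 for Ctsk, 0.30 ± 0.07 for Hexa and 0.36 ± 0.10 for Gusb on the log2 scale (SE). Their fitted peaks in chow lay at ZT 9.46 ± 0.846 h, 15.5 ± 0.884 h, 11.3 ± 0.860 h and 14.7 ± 1.09 h in that order. Group means of Hexa in chow were 50.5, 67.7, 67.2 and 51.2 CPM at ZT2, ZT8, ZT14 and ZT20, and those of Gusb were 17.8, 27.1, 28.9 and 29.6 CPM. In cdHFD the means of Hexa were 120, 113, 111 and 117 CPM and those of Gusb 50.5, 53.3, 45.1 and 51.0 CPM.

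With 4 collection times the cosine is 1 of several shapes. A test of any difference among the times called 0 of the 29 in cdHFD (5.43% of all genes) and 7 in chow (32.1%). The rhythm differed between diets for 1 gene, again Npc1 (adjusted p = 0.0388 in edgeR), against 3.64% of all genes. That call was lost in 22 of the 32 fits that left out 1 library, with adjusted p-values from 0.00727 to 0.0694 over all 32, and without the 4 libraries with GC-related deviations (0.142). The call of Gusb in chow was lost in 6 of the 32 fits, those without chow ZT2 replicate 1, 2 or 3, ZT8 replicate 4, ZT14 replicate 1 or ZT20 replicate 4. Leaving out chow ZT2 replicate 4 or chow ZT14 replicate 2 raised the number of rhythmic genes in chow to 7. On simulated counts with a 2-fold peak-to-trough change the same test recovered 57% of rhythmic genes in chow and 15% of rhythms that differed between diets. At 1.5-fold it recovered 11% and 1%. The simulation held 100 rhythmic genes at each fold among 17853, whereas 17.7% were called rhythmic in real chow livers. Its adjusted threshold was therefore stricter, and these shares do not set what was detectable in the data.

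**Figure D3:**
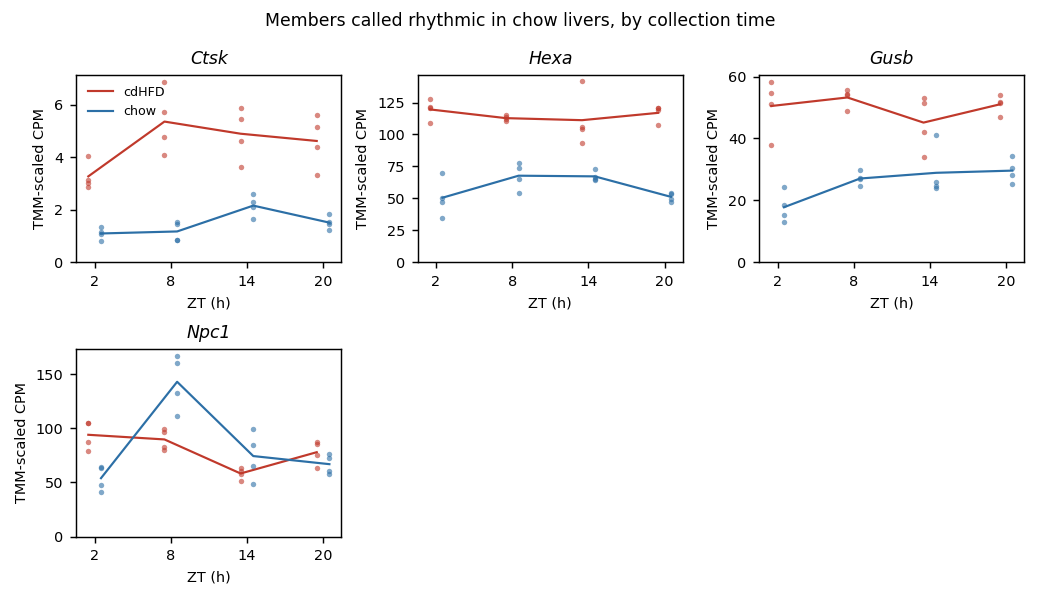
Level of the 4 lysosomal genes called rhythmic in chow, by collection time. Points are livers and lines join group means of TMM-scaled CPM (cdHFD red, chow blue). Npc1 peaks at 143 CPM in chow at ZT8, where cdHFD livers average 89.8 CPM, while Ctsk, Hexa and Gusb are higher in cdHFD at every time.

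Sex differences appeared in chow livers. As female minus male, 6 of the 29 genes were called higher and 1 lower in chow, against 6.12% and 3.36% of all genes (9.47% in all). In cdHFD 0 were called in edgeR (0.941% of all genes), and 1, Ctsa, had an unadjusted p under 0.05. The macrophage markers moved with sex too: 15 of 15 were called higher in females in chow, by log2 0.43 to 1.15, while in cdHFD 0 were higher and 1 lower. Their part in the sex differences was not tested. Ctsc had 80.1 to 162 CPM (median 105) in chow females and 28.0 to 75.3 CPM (median 55.9) in chow males, with no overlap of 8 and 8 livers and a log2 difference of 1.03 ± 0.22 (adjusted p = 0.000481 in edgeR). Ctss had 20.4 to 41.8 CPM in chow females and 11.6 to 33.0 CPM in chow males (log2 0.83 ± 0.18; adjusted p = 0.00138 in edgeR). Lgmn had 41.2 to 68.0 CPM in chow females and 31.6 to 62.1 CPM in chow males (log2 0.51 ± 0.12; adjusted p = 0.00576 in edgeR). The ranges of Ctss and Lgmn overlapped between the sexes.

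Npc2, Ctsb and Grn were higher in chow females by log2 0.47, 0.31 and 0.31, and Manba was lower by a log2 value of -0.28. The call of Grn was lost in 19 of the 32 fits that left out 1 library, that of Manba in 20, and that of Npc2 in 3 (without chow ZT2 replicate 2 or 4 or chow ZT8 replicate 4). In cdHFD Ctss had 98.9 to 252 CPM in females and 105 to 243 CPM in males, and Ctsc 36.5 to 106 CPM in females and 31.96 to 108 CPM in males. The change of the sex difference with diet was called for 1 gene, Ctss, which was lower, against 1.05% of all genes lower and 1.85% in all. It fell by 1.01 ± 0.26 on the log2 scale in cdHFD relative to chow (adjusted p = 0.0222 in edgeR, at most 0.0469 in the fits that left out 1 library).

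**Figure D4:**
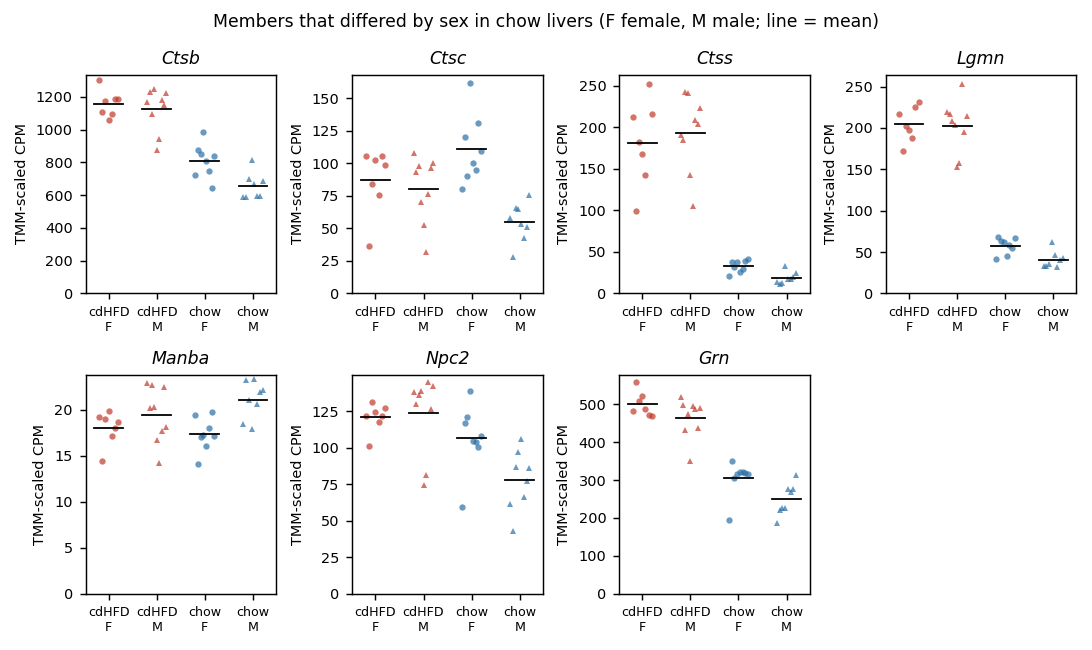
Lysosomal genes that differed by sex in chow. Each point is a liver (circles F for female, triangles M for male; cdHFD red, chow blue), the line is the mean, and the vertical axis is TMM-scaled CPM from 0. The mean of chow females lies above that of chow males in 6 panels and below in that of Manba, while females and males overlap in cdHFD in all 7.

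Because macrophage markers moved with diet, the level of each gene was set against them within each diet (16 libraries each), since the diets formed separate clusters. The marker level was the mean log2 CPM of 15 genes, such as Adgre1, Csf1r, Clec4f and Marco, none of them among the 29. The 58 correlations were tested by permutation (100000 resamples, two-sided) with Benjamini-Hochberg adjustment. The permutation test was not run on all genes, so no share of calls stands beside the counts below. Over all genes the 95th percentile of r was 0.57 in cdHFD and 0.59 in chow. After group and sex means were removed it was 0.61 and 0.54. In cdHFD 14 genes had a called positive Pearson correlation, 6 by Spearman, and the median r of the 29 was 0.60, against 0.02 over all genes. In chow 3 were positive (Ctss, Lgmn and Ctsb), 1 negative (Manba), and the median r was 0.11, against 0.02 over all genes. After group and sex means were removed, 4 were positive in chow (Ctss, Lgmn, Ctsd and Ctsb) and Tpp1 was negative, while Manba had r = -0.27 (adjusted permutation p = 0.481). Removing the means ties the values of a group together, so permutation p-values after that step may be too small. With total-count scaling 18 were positive in cdHFD, where the median r of all genes was 0.22 and their 95th percentile 0.70. In chow 5 were positive and 0 negative under that scaling.

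Lgmn followed the markers most closely in cdHFD, with r = 0.95 and rho = 0.89 (both adjusted p = 0.00058, from the smallest p that the permutations can give, 1e-05). Without the 2 libraries farthest from the median marker level r was 0.89. Hexa had r = 0.88 and rho = 0.82 (adjusted permutation p = 0.00058 and 0.0058), and r = 0.81 without those 2. Gm2a had r = 0.73 and rho = 0.71 (adjusted permutation p = 0.0096 and 0.026) although its mean was lower in cdHFD, and r = 0.68 without the 2 libraries. Without the same 2 libraries the other 11 of the 14 called correlations had r between 0.02 (Lamp1) and 0.53 (Ctsc). The values were 0.10 for Gla, 0.24 for Ctsh and 0.35 for both Psap and Gusb, so these relations between levels, and that of Lamp1, rest on the 2 libraries. After group and sex means were removed, 10 genes had a called positive r in cdHFD, under the limit on such p-values given above. Those of Lgmn, Psap, Ctss and Npc2 were 0.94, 0.89, 0.88 and 0.87. The calls of Gm2a (r = 0.57, rho = 0.34, adjusted permutation p = 0.0811 and 0.394), Gla, Gusb and Lamp1 were lost on these residuals. Psap and Npc2 kept a residual r of 0.84 and 0.81 without the 2 libraries farthest from the median.

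In chow Ctss had r = 0.77 and rho = 0.72 (adjusted permutation p = 0.00681 and 0.026), and Lgmn r = 0.73 and rho = 0.74 (0.0096 and 0.026). Without the 2 farthest libraries r was 0.67 and 0.70. Tfeb and Mcoln1 had negative r in cdHFD, -0.44 and -0.45, which did not pass. All libraries share the tissue, and r does not tell which cells hold the transcripts.

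**Figure D5:**
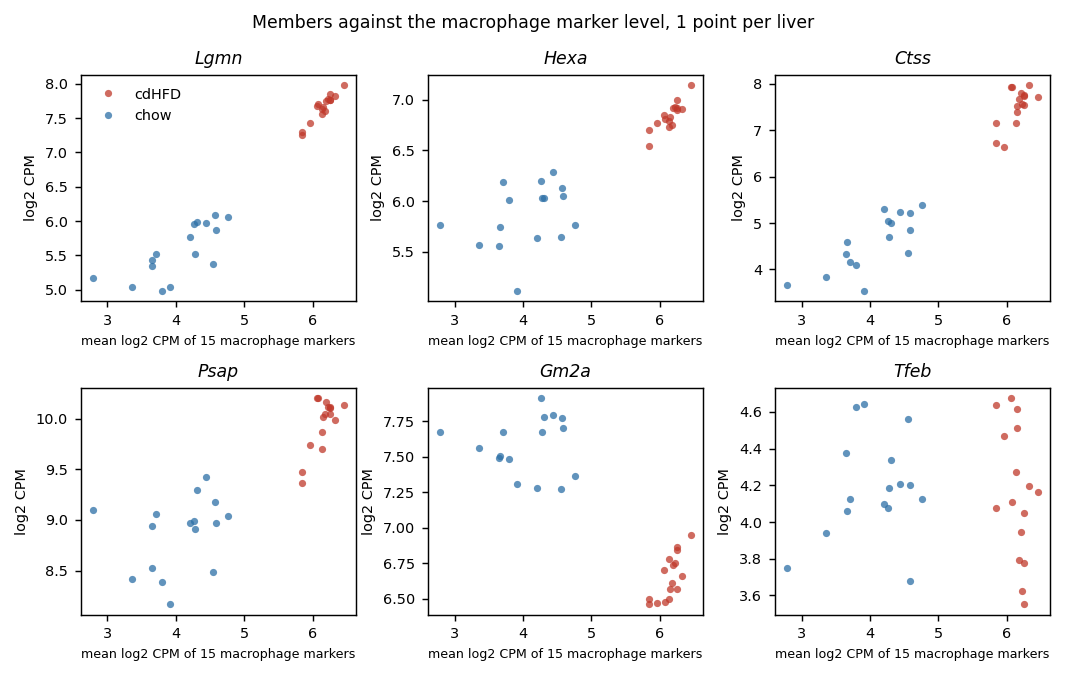
Level of 6 lysosomal genes against the macrophage marker level, chosen after the correlations were seen. Each point is a liver (cdHFD red, chow blue), the horizontal axis is the mean log2 CPM of 15 macrophage markers and the vertical axis the log2 CPM of the gene. Lgmn and Hexa rise with the markers within cdHFD, Gm2a rises within cdHFD from a level below that of chow, and Tfeb shows no rise.

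Other genes of the pathway were counted in lists of known members, to be read against the 31.0% of all genes called higher and the 31.2% called lower. These lists too were chosen with earlier results of these data known, so the counts are descriptions. Of 34 further lysosomal hydrolases 19 were called higher in cdHFD and 4 lower, with a median log2 change of 0.22. The largest rises were those of Ctse (1.79), an aspartic protease found at 1.19 CPM in cdHFD and 0.311 CPM in chow, and of Ifi30 (1.75), the thiol reductase of antigen processing, at 76.1 ± 8.91 CPM in cdHFD and 22.7 ± 4.27 CPM in chow. The largest falls were those of Ctsf (-0.62) and Arsb (-0.34).

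Of 16 V-ATPase genes, which encode the pump that acidifies the lysosome, 10 were called higher and 2 lower (median log2 0.30). Atp6v0d2, a subunit known from osteoclasts and macrophages, had the largest log2 change, 2.09 ± 0.40 (adjusted p = 0.000153 in edgeR), which rested on the males. It averaged 20.4 ± 5.62 CPM in cdHFD females (n = 7) and 17.2 ± 3.85 CPM in cdHFD males (n = 9), against 16.6 ± 9.30 CPM in chow females and 1.22 ± 0.65 CPM in chow males (n = 8 each). Its sex difference in chow (log2 3.73, female over male) changed with diet (log2 -3.57, adjusted p = 2.13e-09 in edgeR). Fitted alone in edgeR, females gave a diet change of 0.34 (adjusted p = 0.297) and males one of 3.95 (adjusted p = 3.41e-11), and without the sex term it was 1.18. Atp6v1b2 rose by 1.03. Atp6v1h (-0.29) and Atp6v0a1 (-0.17) fell, the call of Atp6v0a1 being lost without the filter on low counts (adjusted p = 0.258 in edgeR). Of 22 tested genes for other membrane proteins and transporters 8 were higher and 8 lower (median log2 0.01), near the shares of all genes. Cd63, a tetraspanin of late endosomes, had 160 ± 41.3 CPM in cdHFD and 9.98 ± 3.16 CPM in chow, a log2 change of 3.999 ± 0.16 (adjusted p = 1.36e-18 in edgeR). Mcoln2, a relative of Mcoln1, had 1.98 CPM in cdHFD and 0.252 CPM in chow (log2 2.81). The cation channel gene Tpcn1 fell by 0.74 and Sidt2 fell by 0.43.

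Of 10 genes for mannose 6-phosphate sorting and other handling of hydrolases 3 were higher and 2 lower, so the higher calls were about as frequent as over all genes. The rises were led by the receptor Igf2r (0.67) and by Gnptab (0.49), which makes the tag. The falls were those of Sort1 (-0.20) and Gnptg (-0.19). The calls of Sort1 and Gnptg were lost without the filter on low counts (adjusted p = 0.156 and 0.148 in edgeR), and in females alone Sort1 had a log2 value of -0.00573. Of 16 genes of the MiT/TFE family and its nutrient control 6 were higher and 3 lower. Rragd, a GTPase of mTORC1 signalling, rose most, with 6.68 ± 2.59 CPM in cdHFD and 1.28 ± 0.48 CPM in chow (log2 2.37), followed by Tfec (1.26), while Lamtor4 (-0.51) and Lamtor2 (-0.39) fell. Of 18 autophagy genes 2 were higher and 9 lower (median log2 -0.18). The cargo receptor Sqstm1 rose by 0.58 and Vps18 by 0.18 (not called without the filter, adjusted p = 0.0618 in edgeR), while Atg9a (-0.72) and Ulk1 (-0.53) fell. All 3 tested cystatins, inhibitors of cysteine cathepsins, were higher, led by Cstb (1.75), with 137 ± 14.96 CPM in cdHFD and 41.0 ± 8.27 CPM in chow, and Cst7 (0.77), which lay at 0.142 CPM in cdHFD and 0.0608 CPM in chow. Under total-count scaling no gene of these 7 lists was called lower, and 33, 16, 20, 10, 15, 12 and 3 were called higher in the order given. The falls named here therefore hold only relative to the bulk of genes. Because that scaling shifted the median of all genes upward, these counts cannot be read against the 31.0% under TMM.

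Promoters from RefSeq (GRCm38.p6), 250 bases before to 50 after the start of each gene, were available for 25 of the 29 genes and were searched on both strands. The E-box CACGTG was in 9 of the 25 (36.0%), against 8.09% of 27025 genes. The longer GTCACGTG, which contains it, was in 7 (28.0%), against 2.55%, and the full CLEAR palindrome was in 0, against 0.370%. GAGGAAGT, a core bound by the myeloid factor PU.1, was in 4 of the 25, namely Ctsc, Ctss, Gla and Gusb, against 3.69% of all genes. These are matches of letters, and binding was not measured. Genes with the E-box included some that were higher in cdHFD (Ctsa, Ctsd, Ctsl, Lgmn, Gla and Lamp1), 2 that were lower (Gaa and Mcoln1) and Glb1, which did not pass. The windows below run 5′ to 3′ on the strand of the gene, lie before a RefSeq start and leave out annotated exons. They show 1 upstream E-box in capitals for each of 5 genes, 3 higher and 2 lower in cdHFD. The Lgmn window lies before the second of its RefSeq starts, in an intron of the longer gene model given above. The upstream E-boxes of Ctsa, Ctsl and Gla lie in annotated exons and are not shown.
Ctsd (chr7:142388039-142388077, minus strand): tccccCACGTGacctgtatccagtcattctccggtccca
Lgmn (chr12:102439096-102439181, minus strand): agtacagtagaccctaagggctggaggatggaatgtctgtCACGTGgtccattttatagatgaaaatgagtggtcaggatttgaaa
Lamp1 (chr8:13159060-13159145, plus strand): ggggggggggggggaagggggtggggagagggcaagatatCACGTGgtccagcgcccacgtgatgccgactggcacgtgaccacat
Mcoln1 (chr8:3500408-3500456, plus strand): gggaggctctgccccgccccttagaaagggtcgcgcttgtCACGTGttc
Gaa (chr11:119267783-119267868, plus strand): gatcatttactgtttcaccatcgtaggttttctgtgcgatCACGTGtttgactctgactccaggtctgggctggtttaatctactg
In Lamp1 further E-boxes appear in lower case within the window. Gaa and Ctsl have the E-box without the longer GTCACGTG form.

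The GAGGAAGT match of Ctsc lies upstream and that of Ctss spans its start. The Ctsc match is read on the opposite strand, as ACTTCCTC, and its window is shown for comparison with the E-box genes because Ctsc was called by sex in chow while its averaged diet test did not pass.
Ctsc (chr7:88277894-88277981, plus strand): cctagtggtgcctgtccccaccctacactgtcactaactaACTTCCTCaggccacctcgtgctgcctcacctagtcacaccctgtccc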

How the data were processed

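Liver RNA was measured in 32 libraries. Deposited values are whole-number read counts per gene, which the authors made with HISAT2 and featureCounts on GRCm38 (mm10), per the submitters' processing notes, with DESeq2 also listed there; versions and settings are not stated. Per the labels' protocols, poly-T beads selected messenger RNA and the libraries do not mark strand. Gene IDs were matched to GENCODE M21 (54409 of 54532).

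Counts were tested in edgeR 4.0.16 (R 4.3.3) by the quasi-likelihood F test with robust fitting, TMM scaling, filterByExpr on the 8 groups and a prior count of 2. The model had 1 term per diet and time plus sex, a 24 h cosine within diet for rhythm, or sex within diet. P-values were Benjamini-Hochberg adjusted over 17853 genes, with a threshold of 0.05. Correlations used 100000 permutations in SciPy 1.17.1. The tests were checked on simulated counts: at a 2-fold change 98% of the genes changed by diet were recovered, and at a 1.5-fold change 80%. Far fewer genes were changed there than were called in the data, so the adjusted threshold was stricter.

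The 29 genes and the pathway and marker lists were chosen with earlier results of these data known. Values in every group are given for the 2 genes with the largest and the 1 with the smallest absolute diet change in each role, those lower in cdHFD, those past the time, rhythm or sex tests, and Tfeb. From each pathway list up to 2 called genes with the largest rise and up to 2 with the largest fall are named, and the values of 1 listed gene are not reported here. Replicates differed beyond counting noise in all 48 pairs within groups (chi-square per degree of freedom 19.0 to 324). Alternatives were other scaling (RLE, total counts), no filter, DESeq2 1.42.0, no sex term, a replicate block, each sex alone and leaving out each library. Leaving out the 4 libraries with GC-related deviations was chosen after seeing the data. Protein sequences were not used here.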

Additional observations from a re-analysis of the deposited data

Results flagged for a closer look

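In 18 of 232 groups of 4 libraries a lowest or highest library stood apart from the other 3 by Dixon's criterion, where chance flags about 1 in 20 groups. These involved 13 of the 29 genes. In cdHFD the values that stood apart at ZT2 were the lows of Lgmn (172 CPM) and Psap (856 CPM), both in replicate 4. At ZT14 they were the high of Ctsd (717 CPM, replicate 3) and the lows of Ctsz (360 CPM) and Grn (350.4 CPM), both in replicate 1. At ZT20 they were the low of Hexa (107 CPM) and the high of Manba (22.5 CPM), both in replicate 1.

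In chow they were, at ZT2, the highs of Ctsd (275 CPM, replicate 4) and Mcoln1 (64.0 CPM, replicate 2). At ZT8 it was the low of Lgmn (36.1 CPM, replicate 1). At ZT14 replicate 2 gave the lows of Ctsd (236 CPM), Gm2a (179 CPM) and Npc2 (66.0 CPM) and the high of Tfeb (24.6 CPM), while Gusb was high in replicate 1 (41.0 CPM) and Ctsz in replicate 3 (391.5 CPM). At ZT20 the lows of Lipa (138 CPM) and Grn (275 CPM) were in replicate 1.

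Differences between groups under the same contrast were found in edgeR for the diet effect on Npc1 between times (adjusted p = 0.00282), for its rhythm between diets (adjusted p = 0.0388), and for the sex difference of Ctss between diets (adjusted p = 0.0222).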

How the results depend on the processing

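Scaling changed most. Under total counts 1 gene was called lower on average; 0 were lower at ZT2, 22 higher and 1 lower at ZT8, 21 and 1 at ZT14, and 23 and 0 at ZT20. It also left 2 rhythmic genes in chow, 0 rhythm differences, 0 genes lower in chow females and 5 positive marker correlations in chow. Under it the log2 diet change turned to 0.41 for Ctsh, 0.52 for Glb1, 0.53 for Manba, 0.32 for Mcoln1, 0.54 for Tfeb and 0.23 for Npc1 at ZT14. Without the filter 1 gene was lower at ZT2, 3 differed between times, 2 in rhythm, 0 were lower in chow females and 2 changed their sex difference with diet. Females alone gave 12 higher and 1 lower at ZT2, 4 and 1 at ZT14 and 9 higher at ZT20; males alone gave 1 lower at ZT20; each sex alone gave 0 that differed between times. Signs turned in females alone for Ctsc (-0.38), Manba (0.051), Npc1 (-0.047) and Tfeb (0.0732), and without the sex term for Ctsc (-0.00676) and Npc1 (-0.000418). A test of any time difference called 7 in chow. Without the 4 libraries with GC-related deviations 0 differed in rhythm, 2 changed their sex difference, and Manba (0.0026) and Npc1 (-0.0123) changed sign. Replicate numbers did not pair samples: after sex means, 17 of 112 same-numbered pairs correlated above 0.1 and the lowest was -0.39. Replicates 1 and 2 are male and 3 and 4 female, except at cdHFD ZT14, so a replicate block overlaps sex; with it 0 genes were higher and 0 lower in chow females, and Ctsb (-0.0355), Lgmn (-0.23) and Npc2 (-0.34) changed sign. Leaving out 1 library gave 18 to 19 higher and 4 lower on average; 18 to 20 and 1 to 3 at ZT2 (1 without chow ZT2 replicate 2); 11 to 13 and 4 to 5 at ZT8; 11 to 12 and 3 to 5 at ZT14 (5 without cdHFD ZT14 replicate 4); 13 to 16 and 2 to 3 at ZT20; 1 to 8 that differed between times; 3 to 7 rhythmic in chow; 0 to 2 rhythm differences; 4 to 7 higher and 0 to 1 lower in chow females; and 1 to 2 changed sex differences. Npc1 (-0.0319 to 0.0464) and Tfeb (-0.0924 to 0.0167) changed sign in 11 and 2 of these fits. The cause of these changes was not tested. With 4 libraries a group, small daily changes are hard to call.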
